A study of Mus musculus with 12 samples.

Results

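The nuclear genes of respiratory complex I were compared between wild-type and PTRF knockout mouse muscle. PTRF, also named cavin 1 and encoded by Cavin1, is a coat protein of caveolae. Members were all genes whose symbol begins with Nduf and whose mean over the 6 libraries was at least 1 TPM (a unit that gives each gene's length-corrected share of the transcripts of its library). There were 47 such genes among 21936 listed, 39 of them taken as subunits and 8 as assembly factors, whose symbols begin with Ndufaf. No Nduf gene lay under the threshold, and the lowest members above it, Ndufaf3 and Ndufa4l2, had means of 8.15 and 8.39 TPM. The labels describe C57BL/6N mice aged 3 months, either wild type with normal muscle or PTRF knockout with muscular dystrophy, and 12 samples of soleus or quadriceps with 3 per muscle and genotype. The kind of deletion, and whether numbered samples came from separate animals, are not given in the sources used here, so the spread behind each p-value is that of these samples alone and may be technical. Each quadriceps sample repeated the values of the soleus sample of its genotype and number, so the series held 6 distinct libraries, 3 wild type and 3 knockout. Comparing the copies does not show the muscle of origin of these libraries, which was not tested. In wild type the slow fibre gene Myh7 stood at 2175, 1702 and 2703 TPM for replicates 1, 2 and 3. Of the fast fibre genes, Myh2 stood at 1610, 1209 and 1444 TPM and Myh4 at 6.43, 193.5 and 4.21 TPM.

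Complex I, the NADH:ubiquinone oxidoreductase, is the largest enzyme of the respiratory chain and the main entry point for electrons from NADH. Its matrix arm carries the flavin and the iron-sulphur clusters that pass electrons to ubiquinone, and its membrane arm pumps protons. The mitochondrial genome encodes the hydrophobic core of the membrane arm, and nuclear genes encode the core of the matrix arm, all accessory subunits and the assembly factors, which help to build the enzyme without staying in it. Muscle fibres of oxidative type are rich in the complex.

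Cavin1 checked the labels. Wild-type levels were 45.2, 40.0 and 42.2 TPM, and knockout levels 0.284, 0.0905 and 0.0254 TPM, listed here and below for replicates 1, 2 and 3 (exact two-sided permutation test, p = 0.1, the smallest that 3 against 3 allows). The scale of the values differed between the groups. Of 11056 genes tested with limma, 4016 (36.3%) were higher and 323 (2.92%) lower in the knockout at an adjusted p of 0.05, with a median log2 fold change of 0.33. Rescaling the libraries by a trimmed mean of ratios brought that median to -0.012, with 1564 genes (14.2%) higher and 1490 (13.6%) lower. Counts of members are therefore read on both scales. Wild-type library 2 stood apart from the other wild-type libraries in genes of fast fibres, with Myh4 at 193.5 TPM against 6.43 and 4.21 TPM. Calls lost without it are given for complex I members and other named genes of the pathway. Marker genes of cells and fibres were not read without it alone.

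Transcripts of most complex I subunits made up a smaller share of the knockout libraries. Summed over the 39 subunits, they came to 13582, 13859.5 and 16784.5 TPM in wild type and to 11690.2, 12700.5 and 12163 TPM in the knockout. The groups did not overlap, and the mean was 12185 ± 505 TPM in the knockout and 14742 ± 1774 TPM in wild type (SD, n = 3 each), a ratio of 82.7%. As a share of all TPM outside the mitochondrial genome the subunits held 3.35%, 3.36% and 3.47% in wild type and 2.21%, 2.76% and 2.41% in the knockout. The wild-type shares lay closer together than the sums in TPM did. In tissue RNA, fewer muscle fibres and less RNA per fibre cannot be told apart.

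On the deposited scale 6 of the 39 subunits fell (against 2.92% of all genes), 1 rose (against 36.3%) and 32 did not pass. Their median log2 fold change was -0.30, beside 0.33 for all genes tested, with 36 subunits below 0. After trimmed-mean rescaling 37 subunits were lower (against 13.6% of all genes), none was higher, 2 did not pass, and the median was -0.69 beside -0.012. No subunit was higher at an unadjusted p under 0.05 on that scale either (limma). Scaled over nuclear genes alone, 30 were lower (against 6.4%), and after quantile normalization 27 were (against 13.1%). All knockout values lay below all wild-type values for 21 of 39 subunits, against 4.83% of all genes on the deposited scale, and above them for 1, against 48.7%. The count of 6 lower subunits also depended on single libraries. It was 2 when wild-type library 2, wild-type library 3 or knockout library 3 was left out, 1 when knockout library 1 was, and 0 when knockout library 1 and wild-type library 2 both were. The median moved less, from -0.32 to -0.20 over these and the other libraries left out singly.

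**Figure D1:**
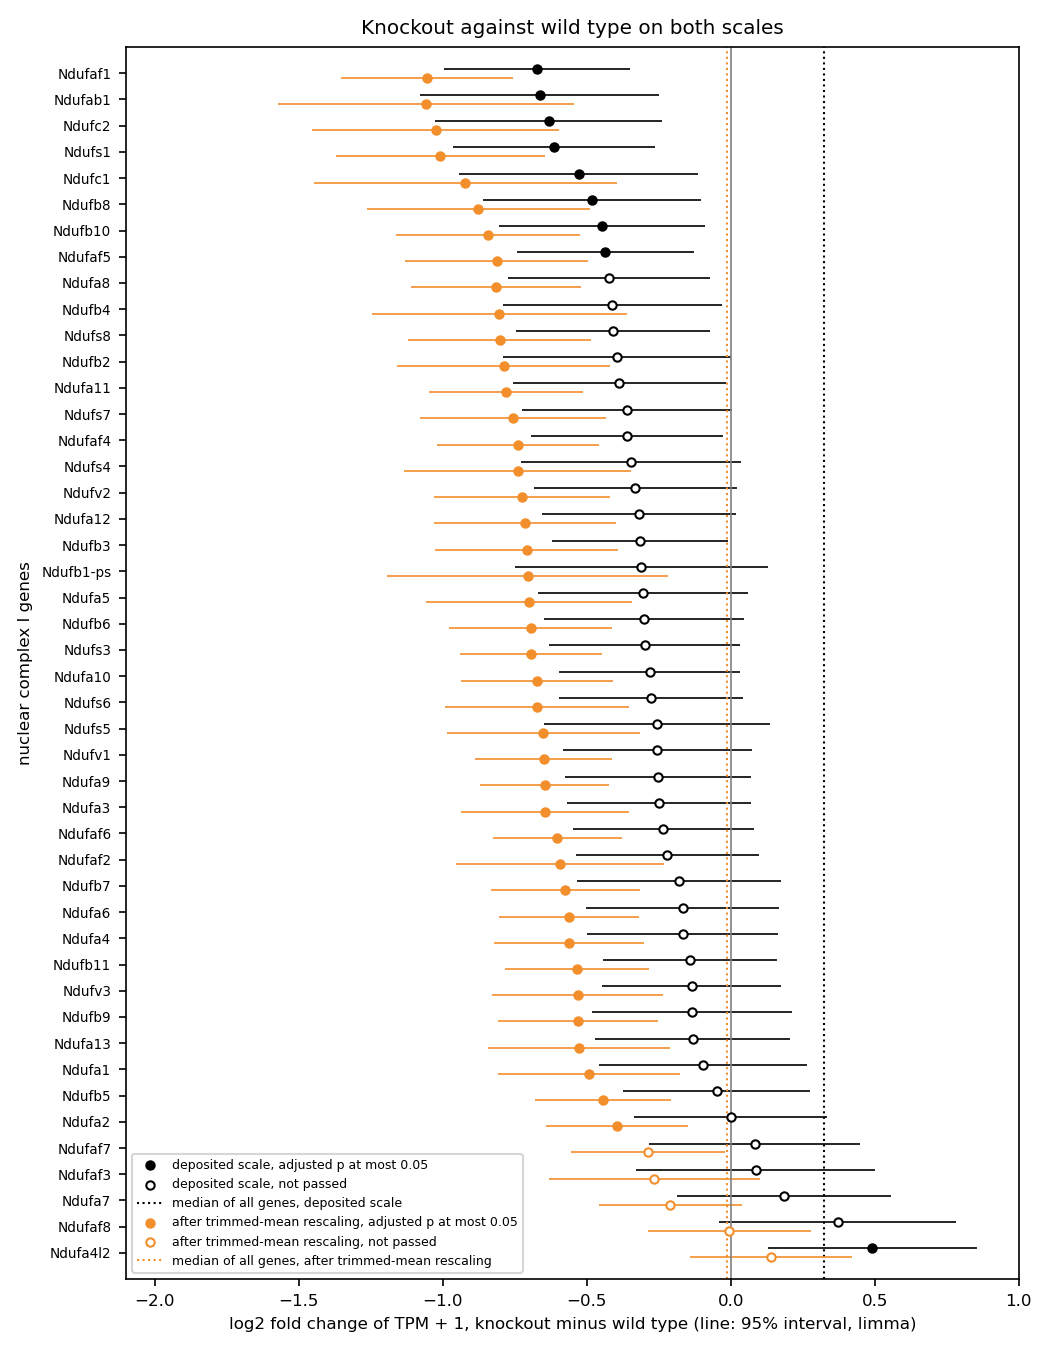
Log2 fold change of TPM + 1, knockout minus wild type, for nuclear complex I genes (all but 1 of the 47 members are drawn) on the deposited scale (black) and after trimmed-mean rescaling (orange), with 95% intervals from limma. Filled points passed an adjusted p of 0.05 and dotted lines mark the median of all genes on each scale. On the deposited scale 6 subunits and 2 assembly factors were lower, and after rescaling 37 and 5, counted over all 47 members.

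The transcript levels of the subunits spanned a wide range although most subunits are present once per complex. All but Ndufa4l2 had a mean of at least 100 TPM over the 6 libraries. The most abundant were Ndufa4 (mean of 1127 TPM over all libraries), Ndufb9 (892 TPM) and Ndufb5 (662 TPM). The least abundant after Ndufa4l2 were Ndufb4 (133 TPM) and Ndufa10 (145 TPM). Ndufa4 and Ndufa4l2 carry complex I symbols by history, and means of the other 37 subunits ran from 133 TPM (Ndufb4) to 892 TPM (Ndufb9). Assembly factors were rarer, from 8.15 TPM for Ndufaf3 to 31.6 TPM for Ndufaf1. Wild-type library 3 held the highest wild-type value for 33 of 39 subunits. Its mitochondrial transcripts took 43.0% of TPM, below the 52.3% and 51.1% of wild-type libraries 1 and 2, and the part of this in the subunit values was not tested. Knockout library 2 held the highest knockout value for 22 of 39 subunits.

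**Figure D2:**
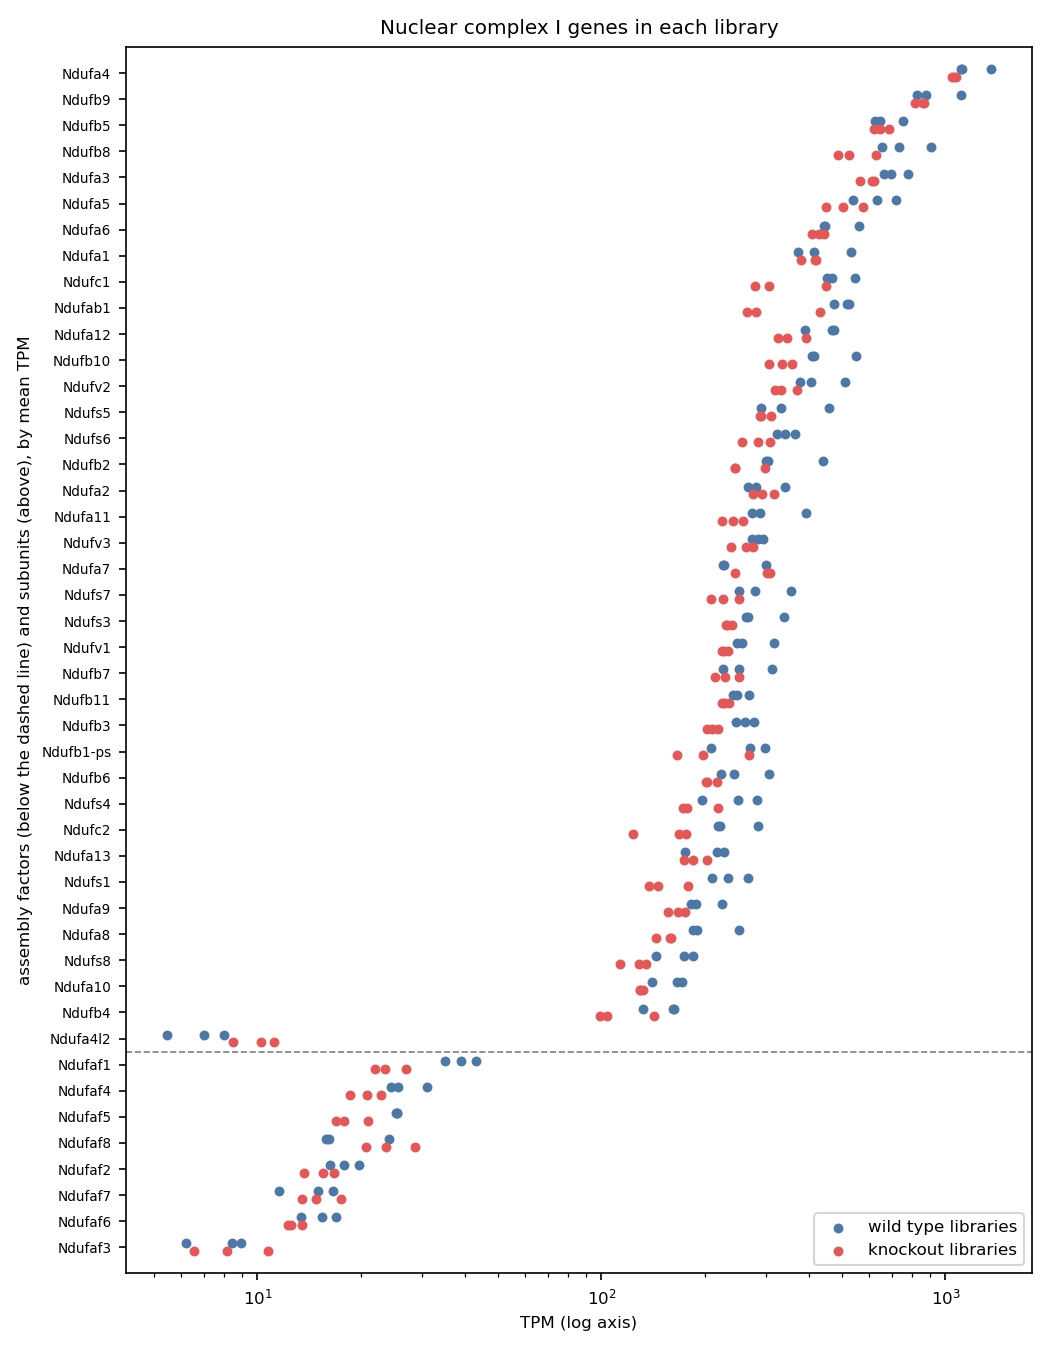
TPM of nuclear complex I genes (all but 1 of the 47 members are drawn) in the 3 wild-type (blue) and 3 knockout (red) libraries on a log axis, ordered by mean level, with assembly factors below the dashed line. Subunits other than Ndufa4l2 lie at means of 100 TPM or more, and red points lie to the left of blue points for 21 of 39 subunits.

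Among the 7 nuclear-encoded core subunits, which bind NADH, the flavin, the iron-sulphur clusters and ubiquinone, 1 fell (against 2.92% of all genes) and 6 did not pass on the deposited scale. All 7 had log2 fold changes below 0 (median -0.33), and all 7 were lower after rescaling (against 13.6%). Ndufs1, the largest subunit and carrier of several iron-sulphur clusters of the NADH-binding tip, is encoded on chromosome 1 (63143596 to 63176833, minus strand, GRCm38). Its level was 209, 233 and 267 TPM in wild type and 138, 178 and 146 TPM in the knockout, with no overlap. The log2 fold change was -0.61 (SE 0.16, limma, adjusted p = 0.012). Over 16 alternatives its adjusted p ran from 0.00265 to 0.106, and the call was lost where wild-type library 2 and knockout library 1 were both left out.

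The other core subunits did not pass on the deposited scale. Ndufs8, a ferredoxin-like subunit that leads electrons towards ubiquinone, stood at 174, 144 and 184 TPM against 113, 134 and 128 TPM (log2 fold change -0.41, adjusted p = 0.053). Ndufv2, an iron-sulphur subunit beside the flavin, stood at 376, 408 and 510 TPM against 333, 369 and 320 TPM. Ndufv1, which binds NADH and the flavin, stood at 247, 257 and 317 TPM against 227, 223 and 232 TPM. For these subunits the groups did not overlap, with each knockout value under the lowest wild-type value. Ndufs3 did not overlap either, at 263, 267 and 339 TPM against 230, 231 and 240 TPM. Ndufs7, which lines the ubiquinone pocket, was at 251, 280 and 354 TPM against 208, 225 and 251 TPM. Its groups overlapped, with knockout library 3 at the level of wild-type library 1.

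Accessory subunits placed in the NADH-binding tip or the ubiquinone-binding part did not pass on the deposited scale. Ndufs4, whose loss in mice is used as a model of Leigh syndrome, stood at 195, 249 and 283 TPM against 172, 218 and 178 TPM. Ndufs6 had a log2 fold change of -0.28, Ndufa12 -0.32, Ndufa5 -0.30 and Ndufv3 -0.14. Ndufa2 had the same mean in both groups, 296 ± 39.1 and 295 ± 21.5 TPM, and its interval on the log2 scale ran from -0.34 to 0.34. After rescaling these subunits were lower, Ndufa2 included (log2 fold change -0.39).

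In the membrane arm 4 of 20 subunits fell on the deposited scale (against 2.92% of all genes) and none rose. After rescaling all 9 proximal and all 11 distal subunits were lower (against 13.6%). Ndufc1 and Ndufc2 are small subunits near the middle of the arm. Ndufc2 (chromosome 7, 97400003 to 97407802, plus strand) stood at 221, 218 and 286 TPM in wild type and 124, 177 and 169 TPM in the knockout (log2 fold change -0.63, SE 0.18, adjusted p = 0.018), a call lost when wild-type library 3 or knockout library 1 was left out. Ndufc1 (chromosome 3, 51404677 to 51408988, minus strand) stood at 546, 454 and 467 TPM against 280.0, 449 and 307 TPM. Knockout library 2 lay just under the lowest wild-type value, and the gene passed closely (log2 fold change -0.53, adjusted p = 0.045).

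Ndufb8 and Ndufb10 belong to the distal part of the arm, far from the matrix arm. Ndufb8 (chromosome 19, 44548572 to 44555440, minus strand) stood at 655, 731 and 910 TPM against 487, 629 and 523 TPM (log2 fold change -0.48, adjusted p = 0.045). Ndufb10 (chromosome 17, 24722060 to 24724478, minus strand) stood at 409, 414 and 549 TPM against 307, 357 and 334 TPM (log2 fold change -0.45, adjusted p = 0.048). Neither group pair overlapped. Ndufc1, Ndufb8 and Ndufb10 each lost the call under 8 to 10 of 16 alternatives, among them the pseudocount of 5 and each removal of wild-type library 2 or 3 or of knockout library 1 or 3, while each had a log2 fold change below 0 under all 16. The other membrane subunits did not pass, with log2 fold changes from -0.42 for Ndufa8 to -0.05 for Ndufb5. Ndufb1-ps, typed in GENCODE M21 as a long non-coding RNA from a bidirectional promoter, stood at 209, 270.0 and 299 TPM against 198, 268 and 166 TPM.

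The parts of the complex had similar medians. The median log2 fold change was -0.30 for 8 subunits of the NADH-binding tip, -0.30 for 5 of the ubiquinone-binding part, -0.28 for 9 of the proximal membrane arm and -0.31 for 11 of the distal membrane arm. The remaining 4 subunits placed in no single part, Ndufa6, Ndufa7, Ndufa9 and Ndufab1, had a median of -0.21 and held both extremes of the whole set of 37 (all subunits but Ndufa4 and Ndufa4l2).

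**Figure D3:**
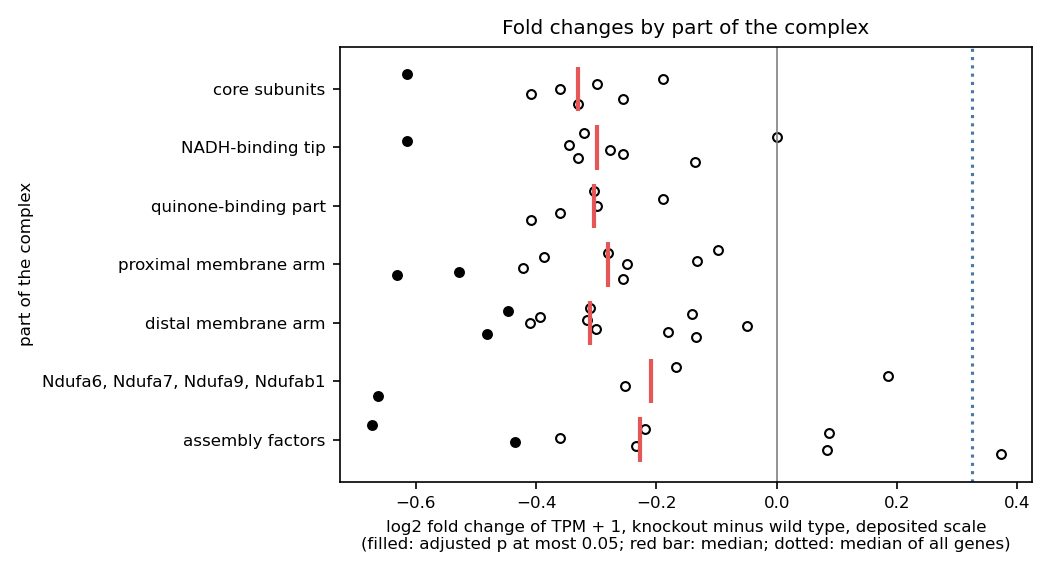
Log2 fold change on the deposited scale for each gene by part of the complex, with core subunits shown in a row of their own and again in the part they belong to. Filled points passed an adjusted p of 0.05, red bars are medians, and the dotted line is the median of all genes, 0.33. Medians of the parts lie between -0.33 and -0.21.

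Ndufab1 is the mitochondrial acyl carrier protein. It is a subunit of complex I and also serves mitochondrial fatty acid synthesis and the making of iron-sulphur clusters. Its gene (chromosome 7, 122085403 to 122101886, minus strand) stood at 473, 516 and 524 TPM in wild type and 265, 431 and 281 TPM in the knockout. The log2 fold change was -0.66 (SE 0.19, adjusted p = 0.018), with knockout library 2 far above the other knockout libraries. Without wild-type library 2, knockout library 1 or knockout library 3 the call was lost. Ndufa7, an accessory subunit of the matrix arm, lay at the other end. Its values of 228, 226 and 302 TPM against 303, 244 and 308 TPM overlapped, and its log2 fold change was 0.18 with an interval from -0.19 to 0.56 on the deposited scale and -0.21 after rescaling.

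Ndufa4 and Ndufa4l2 carry complex I symbols by history. Ndufa4 is now regarded as a subunit of cytochrome c oxidase, and Ndufa4l2 is its paralog, known to be induced by the hypoxia factor HIF-1. Ndufa4 stood at 1117, 1111 and 1354 TPM against 1071, 1047 and 1059 TPM (log2 fold change -0.17, adjusted p = 0.38). Ndufa4l2 (chromosome 10, 127514967 to 127517154, plus strand) stood at 7.01, 5.46 and 7.99 TPM against 10.2, 8.50 and 11.1 TPM, and was the member that rose (log2 fold change 0.49, SE 0.17, adjusted p = 0.036). Its call was lost after trimmed-mean rescaling, where the log2 fold change was 0.14, and under 9 of 15 alternatives in all (adjusted p from 0.0179 to 0.582), each removal of wild-type library 1 or 2 or of knockout library 1 or 3 among them. A ratio of the pair, chosen after the values were seen, does not depend on the scale of a library. Ndufa4l2 came to 0.627%, 0.491% and 0.590% of Ndufa4 in wild type and to 0.954%, 0.812% and 1.05% in the knockout, with no overlap. How reads of these paralogs were divided is not given in the sources used here.

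Of the 8 assembly factors of the Ndufaf series 2 fell, against 2.92% of all genes, and 6 did not pass. None rose, and none was higher at an unadjusted p under 0.05 (limma). Their median log2 fold change was -0.23. After rescaling 5 were lower, against 13.6%, with a median of -0.60. When wild-type library 1 or 2 or knockout library 1 or 3 was left out, Ndufaf1 alone was lower.

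Ndufaf1 belongs to the membrane-bound complex that builds the middle of the membrane arm. Its gene (chromosome 2, 119655446 to 119662827, minus strand) stood at 35.1, 39.0 and 43.1 TPM in wild type and 23.5, 26.9 and 21.9 TPM in the knockout, so every knockout value was below every wild-type value. The log2 fold change was -0.67 (SE 0.15, limma, adjusted p = 0.0046), the lowest of the 47 members. It passed under all 16 alternatives, with adjusted p from 0.00100 to 0.0372. Relative to the summed subunits, Ndufaf1 came to 0.259%, 0.281% and 0.257% in wild type and 0.201%, 0.212% and 0.180% in the knockout. This ratio was chosen after the values were seen, with Ndufaf1 already the member of lowest fold change, and is a description only.

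Ndufaf5, which hydroxylates an arginine of the subunit Ndufs7, stood at 25.3, 25.4 and 25.4 TPM against 17.8, 20.97 and 16.9 TPM (log2 fold change -0.44, adjusted p = 0.030). Its wild-type values were nearly equal, and the groups did not overlap. Ndufaf4, which acts with Ndufaf3 on the early matrix arm, stood at 24.4, 25.6 and 31.0 TPM against 20.9, 22.8 and 18.6 TPM (adjusted p = 0.078). Ndufaf6 and Ndufaf2 had log2 fold changes of -0.23 and -0.22 and overlapped between groups. Ndufaf7, an arginine methyltransferase of the early matrix arm, Ndufaf3 and Ndufaf8, the partner of Ndufaf5, had values above 0, at 0.08, 0.09 and 0.37. After rescaling those values were -0.29, -0.26 and -0.0051. Ndufaf8 stood at 15.8, 16.2 and 24.1 TPM against 28.6, 20.6 and 23.6 TPM.

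Assembly factors of other names were read in the same way. Of 12 listed genes measured, 1 fell (against 2.92% of all genes), none rose (against 36.3%) and 11 did not pass, with a median of -0.25. None was higher at an unadjusted p under 0.05. Dmac2, a factor for the distal membrane arm, fell from 40.2 ± 6.36 to 28.1 ± 1.10 TPM (log2 fold change -0.49, adjusted p = 0.027), a call lost when wild-type library 2 or 3 or knockout library 1 or 3 was left out. After rescaling 9 of the 12 were lower (against 13.6%).

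Promoter sequences of members from RefSeq (GRCm38.p6) were searched for the sites of 3 factors that act on nuclear respiratory genes. The table matched 40 of the 47 members, each with 250 bases before and 50 after the start site. The core GABP and ETS site CCGGAAG, read on both strands, was found in 6 members (15%) against 9.93% of all 27025 genes in the table. The palindromic core site of NRF1, 10 bases long, was found in 3 members, Ndufa11, Ndufaf4 and Ndufaf5 (7.5%), against 1.07%. The site TCAAGGTCA of the estrogen-related receptors was found in 0 members, against 0.466% of all genes. So rare an exact match would seldom be met among 40 promoters, so its absence cannot show that members lack sites of these receptors. None of the 3 sites contains another, and a match is a description of the sequence only. Ndufaf1 is shown because it fell most, Ndufaf4 and Ndufa11 because they hold the NRF1 site before the start, and Ndufab1 because it was the subunit that fell most and held none of the sites. Each run is 120 bases on the strand of the gene, with matches in capitals.
Ndufaf1, chr2:119662835-119662954, minus strand: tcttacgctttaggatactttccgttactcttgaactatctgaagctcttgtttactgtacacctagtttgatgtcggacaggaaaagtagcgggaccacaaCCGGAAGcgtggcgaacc
Ndufaf4, chr4:24897963-24898082, plus strand: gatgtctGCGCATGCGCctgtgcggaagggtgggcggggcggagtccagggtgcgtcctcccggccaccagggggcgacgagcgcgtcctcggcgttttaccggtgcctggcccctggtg
Ndufa11, chr17:56717642-56717761, plus strand: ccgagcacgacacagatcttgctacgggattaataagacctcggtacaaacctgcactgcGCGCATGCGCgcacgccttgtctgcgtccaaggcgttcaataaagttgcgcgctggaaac
Ndufab1, chr7:122101887-122102006, minus strand: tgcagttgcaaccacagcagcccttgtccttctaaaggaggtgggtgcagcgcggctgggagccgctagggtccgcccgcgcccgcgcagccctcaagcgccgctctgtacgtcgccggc

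The CCGGAAG of Ndufaf1 began 18 bases before the start site, and the NRF1 sites of Ndufa11 and Ndufaf4 began 60 and 113 bases before it. In Ndufaf5, which fell on the deposited scale, the NRF1 site lay after the start site. Ndufa11, a membrane arm subunit, stood at 290, 274 and 393 TPM against 241, 224 and 258 TPM and did not pass on the deposited scale (log2 fold change -0.39, adjusted p = 0.086). Members with and without a match thus both included genes that fell.

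Regulators of nuclear respiratory genes were measured in the same libraries. Of 12 listed, 2 fell (against 2.92% of all genes), 1 rose (against 36.3%) and 9 did not pass. Perm1, a muscle regulator that acts with PGC-1 and the estrogen-related receptors, stood at 138, 126 and 171 TPM in wild type and 76.0, 82.9 and 57.1 TPM in the knockout (log2 fold change -1.01, adjusted p = 0.0013). Esrra, the estrogen-related receptor alpha, stood at 71.1, 67.6 and 81.7 TPM against 54.1, 48.5 and 46.9 TPM (log2 fold change -0.55, adjusted p = 0.012, and 0.0612 when knockout library 3 was left out). For both genes all knockout values lay under all wild-type values. Pprc1, a coactivator related to PGC-1, rose from 3.75 ± 0.909 to 6.86 ± 2.26 TPM (log2 fold change 0.71, adjusted p = 0.022), a call lost after rescaling and when wild-type library 2 or knockout library 1 was left out. Ppargc1a, which encodes PGC-1 alpha, stood at 10.1, 9.74 and 8.55 TPM against 6.84, 8.63 and 4.18 TPM and did not pass (adjusted p = 0.066). Nrf1 and Gabpa, whose sites were searched above, had log2 fold changes of 0.33 and -0.042 and did not pass. After rescaling 5 of the 12 regulators were lower (against 13.6%), Gabpa (-0.40) and Ppargc1a (-0.86) among them, and none was higher.

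Other enzymes that pass electrons to ubiquinone were set beside complex I. Of 9 tested, 2 fell (against 2.92% of all genes), 1 rose (against 36.3%) and 6 did not pass. After rescaling 5 were lower (against 13.6%), Sdha, Sdhb and Sdhc of complex II among them, and none was higher. Etfdh, which takes electrons from fatty acid oxidation, stood at 175, 185 and 213 TPM against 86.9, 104.5 and 109 TPM (log2 fold change -0.93, adjusted p = 0.00084). Its change was larger than that of each of the 47 complex I members, and the difference between the genes was not tested. Sdhd, a membrane anchor of complex II, fell from 237 ± 35.7 to 160 ± 26.6 TPM (adjusted p = 0.022), a call lost when wild-type library 3 or knockout library 1 or 3 was left out. Prodh, the proline dehydrogenase, stood at 6.82, 8.75 and 7.75 TPM against 13.9, 8.78 and 13.3 TPM and rose (adjusted p = 0.033). That call was lost after rescaling and when wild-type library 1 or 3 or knockout library 1 or 3 was left out. Of 6 listed factors of respiratory supercomplexes 1 fell on the deposited scale (against 2.92%), and 4 were lower after rescaling (against 13.6%), namely Cox7a1, Higd1a, Higd2a and Cox7a2l. Cox7a1 was the gene that fell on the deposited scale, from 1576 ± 299 to 1027 ± 52.5 TPM (adjusted p = 0.017), a call lost when wild-type library 2 or knockout library 1 or 3 was left out.

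**Figure D4:**
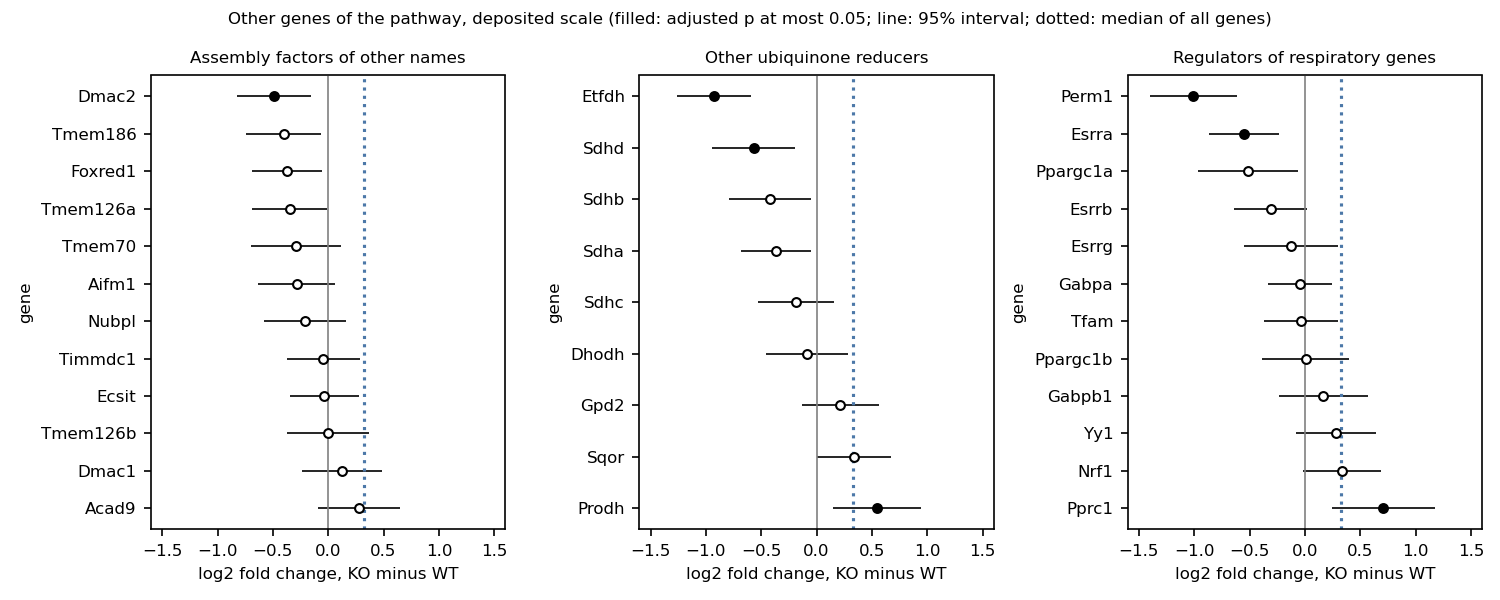
Log2 fold change with 95% interval on the deposited scale for assembly factors of other names, other ubiquinone reducers and regulators of respiratory genes. Filled points passed an adjusted p of 0.05 and the dotted line is the median of all genes. Perm1 (-1.01) and Etfdh (-0.93) have the lowest values.

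The 7 subunits encoded by the mitochondrial genome did not pass. None was called on either scale, and none had an unadjusted p under 0.05 on the deposited scale (limma), where 2 did after rescaling, both lower. Their median log2 fold change was -0.12 on the deposited scale, with 5 of 7 below 0, and -0.51 after rescaling, with all 7 below 0. Standard errors after rescaling ran from 0.21 (mt-Nd5) to 0.44 (mt-Nd6), so not passing does not show that these transcripts were unchanged. Their summed level was 152757, 157290 and 128075 TPM in wild type and 121007, 134124 and 129024 TPM in the knockout, with overlap. The most abundant by mean over all libraries, mt-Nd1, stood at 34128, 34447 and 29512 TPM against 23830, 29281 and 23906 TPM (adjusted p = 0.12), and its groups did not overlap. It passed under 1 of 15 alternatives (limma, adjusted p from 0.0496 to 0.566). The ratio of mitochondrial to nuclear subunits, each as summed TPM, was 11.2, 11.3 and 7.63 in wild type and 10.4, 10.6 and 10.6 in the knockout. Wild-type library 3 was the lowest of all 6, and the groups overlapped.

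**Figure D5:**
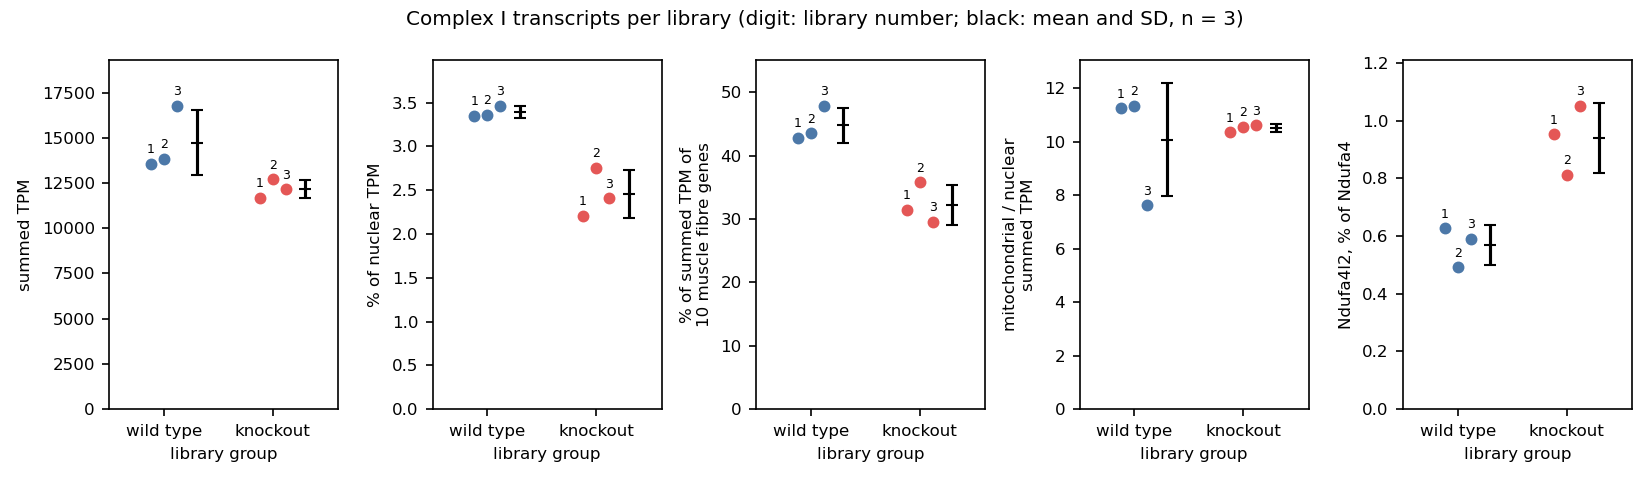
Per-library values in 3 wild-type (blue) and 3 knockout (red) libraries, with mean and SD in black: summed subunit TPM, the same as a share of nuclear TPM and of 10 muscle fibre genes, the ratio of mitochondrial to nuclear subunits, and Ndufa4l2 relative to Ndufa4. Groups overlap only in the ratio of mitochondrial to nuclear subunits.

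Markers of the cells in the tissue also differed between the groups. The 10 macrophage genes listed were all higher (summed level 37.2 to 44.9 TPM in wild type and 190 to 239 TPM in the knockout), as were the 8 genes of fibro-adipogenic cells (289 to 320 TPM and 875 to 917 TPM). Of the macrophage genes, Adgre1 (0.302, 0.288 and 0.265 TPM) and Cd14 (0.392, 0.250 and 0.581 TPM) lay under 1 TPM in every wild-type library. Both entered the tests only through the knockout, where they were high, so their calls add no support. Of 6 endothelial genes 5 were higher and 1, Kdr, lower (78.2 to 85.6 TPM and 153 to 180 TPM). These counts are on the deposited scale, where 36.3% of all genes were higher and 2.92% lower. After rescaling all 10 macrophage and all 8 fibro-adipogenic genes were still higher (against 14.2%). Of the endothelial genes 4 were then higher and Kdr lower (against 13.6%), while Cdh5 did not pass (log2 fold change 0.077). Adipocyte genes did not pass, 0 of 5 tested, with summed levels of 403 to 525 TPM and 529 to 590 TPM. Erythroid genes did not pass either, 0 of 5, at 814 to 1427 TPM and 346 to 1759 TPM. No adipocyte or erythroid gene had an unadjusted p under 0.05 (limma), and no marker of these lists was at 0 in any library. Of 10 genes shared by muscle fibres 1, Des, was higher (against 36.3% of all genes) and none lower (against 2.92%) on the deposited scale. After rescaling 1 was higher (against 14.2%) and 1 lower (against 13.6%). Their median log2 fold change of 0.27 turned to -0.12 after rescaling. Their summed level was 31688 to 35032 TPM in wild type and 35490.5 to 41071 TPM in the knockout. Against the sum of these fibre genes the complex I subunits came to 42.9%, 43.6% and 47.9% in wild type and 31.5%, 35.8% and 29.6% in the knockout, with no overlap. Acta1 had the highest level of the 10 fibre genes, with means of 11864 TPM in wild type and 16030 TPM in the knockout. On the deposited scale 3 of the 10, Ckm, Mb and Eno3, had log2 fold changes below 0 (-0.16, -0.19 and -0.14). The percentages thus depend on the genes summed, and ratios to single fibre genes were not taken. Slow fibre genes summed to 20883 to 30023 TPM and 21224 to 25649 TPM, and fast fibre genes to 22324 to 26045 TPM and 25320 to 28979 TPM. Of 8 slow fibre genes 0 passed on the deposited scale (limma, 1 lower at an unadjusted p under 0.05). After rescaling 3 of them were lower (against 13.6% of all genes). Of 9 fast fibre genes 2, Myh4 and Actn3, were higher on the deposited scale, against 36.3% of all genes. After rescaling 0 of the 9 passed, against 14.2% of all genes higher and 13.6% lower (limma, 1 higher and 1 lower at an unadjusted p under 0.05). Myh4, the myosin of the fastest fibres, stood at 6.43, 193.5 and 4.21 TPM in wild type and 238, 580 and 346 TPM in the knockout, with no overlap (log2 fold change 4.22, adjusted p = 0.0075). Actn3, an actinin of fast fibres, stood at 9.67, 104 and 22.8 TPM against 70.7, 147 and 109 TPM, with overlap through wild-type library 2 (log2 fold change 1.82, adjusted p = 0.035). The part of these other cells and fibre types in the complex I values was not tested.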

How the data were processed

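Poly(A) RNA was sequenced after TRIzol extraction and NEBNext Ultra library preparation, per the labels' protocols. The submitters' processing notes name the builds mm10 and GRCm38 and, without roles, kallisto 0.43.0 and STAR 2.5.3a. The deposited values were taken as TPM from the values alone, with totals of 843194 to 872482 per library, so a library-wide shift moves all genes. TPM keeps no depth, and no counting interval is given. The members and lists were chosen with earlier results of these data known.

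Genes missing from a file were set to 0. The 6 soleus and quadriceps pairs with equal values counted as 6 libraries, and of a repeated symbol the row with the higher mean was used. Tests by limma 3.58.1 on log2(TPM + 1) took genes that reached 1 TPM in 3 or more libraries, all 47 members among them (R 4.3.3, intensity trend, Benjamini-Hochberg adjustment at 0.05). Fold changes are on that scale, which understates changes of low genes. Trimmed-mean rescaling cut 30% of ratios at each end and 5% of levels at each end, against the geometric mean library. Gene positions come from GENCODE M21 (GRCm38), which held 99.5% of the gene identifiers.

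Named genes were the core subunits, all members passing, the 4 lowest and 4 highest subunit fold changes, the 3 most and 3 least abundant subunits, all Ndufaf genes, Ndufa4, Ndufa4l2, Ndufab1 and, of each other list, up to 4 passing genes or the most abundant. Ndufs4, Ndufs6, Ndufa12, Ndufa5, Ndufv3, Ndufa8, Ndufa11, Ndufb1-ps, Ppargc1a, Nrf1, Gabpa, Higd1a, Higd2a, Cox7a2l, Sdha, Sdhb and Sdhc were added after their values were seen. So were Adgre1, Cd14, Acta1, Ckm, Mb and Eno3. Values of 1 core subunit are not reported here, and it stays in the counts, sums and medians. Alternatives were no trend, quantile, trimmed-mean and nuclear-only scaling, no filter, a 10 TPM filter, a block for the replicate number, pseudocounts of 5 and 0.1, and removal of libraries. Data were simulated for this comparison (11056 genes, 100 changed by each size). In them limma recovered 73% of log2 changes of 1 and 97% of changes of 2, with 6 false calls. Changed genes were drawn from those above the median level, in equal numbers up and down. Noise was normal and independent, and the other genes were not shifted. The deposited scale differs from that setting, with 36.3% of genes higher, so these figures need not hold for it or for genes of low level. Smaller changes were not simulated. On the deposited scale the members' log2 fold changes ran from -0.67 (Ndufaf1) to 0.49 (Ndufa4l2), so recovery at their size is not known.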

Additional observations from a re-analysis of the deposited data

How the results depend on the processing

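TPM gives no depth, so counting error is not known, and 3 libraries a group limit each test. The subunits' median log2 fold change was below 0 in every setting run, at -0.47 after quantile normalization, -0.69 after trimmed-mean rescaling and -0.50 on the nuclear-only scale; for assembly factors it was -0.57, -0.60 and -0.43. The median of all genes was -0.041, -0.012 and 0.18 on those scales, 0.18 with no filter, 0.20 with a pseudocount of 5 and 0.21 without knockout library 1 and wild-type library 2 together. Against 6 lower subunits there were 27, 37 and 30 on the 3 scales, 1 with no filter, 3 with a pseudocount of 5, 0 without those 2 libraries together and 1 to 7 with each library left out. The 1 higher subunit, Ndufa4l2, was lost (0) on the 3 scales, with no filter, under the 10 TPM filter, which removes it, and without those 2 libraries, and the count was 0 to 1 with each library left out. Against 2 lower assembly factors there were 5, 5 and 4 on the 3 scales, 1 without those 2 libraries and 1 to 2 with each library left out, with 0 to 1 higher. The number of all genes called lower was 1450, 1490 and 777 on the 3 scales and 213 without those 2 libraries. The number of all genes called higher was 1373 after quantile normalization, 1564 after trimmed-mean rescaling, 1616 under the 10 TPM filter, 1673 without those 2 libraries and 2379 to 4150 with each library left out. With the replicate number as a block 3 subunits were lower; deviations of same-numbered libraries correlated at 0.03, -0.01 and 0.04, so the numbers were not taken to pair the samples. In no sign change but that of Ndufa2 after trimmed-mean rescaling did a gene pass. Ndufa2 turned to -0.17, -0.39 and -0.20 on the 3 scales, -8.2e-06 with a pseudocount of 5 and -0.026 without those 2 libraries, and ran from -0.072 to 0.10 with each library left out. Ndufaf7 turned to -0.25, -0.29 and -0.11, and -0.15 without those 2, and ran from -0.056 to 0.19 with each library left out. Ndufaf3 turned to -0.30, -0.26 and -0.10, and -0.22 without those 2, and ran from -0.078 to 0.24 with each library left out. Ndufa7 turned to -0.21 after trimmed-mean rescaling and -0.016 on the nuclear-only scale, and Ndufaf8 to -0.0051 after trimmed-mean rescaling. Ndufa1 and Ndufb5 turned to 0.046 and 0.031 without wild-type library 3. Apart from filters and fewer samples, the cause was not tested.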

Other observations

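Ratios between members of the same library do not depend on its scale, and those below were chosen after the values were seen. Ndufs1 relative to the median subunit was 0.752, 0.848 and 0.783 in wild type and 0.571, 0.676 and 0.568 in the knockout, with no overlap. Ndufa7 relative to the median subunit was 0.818, 0.822 and 0.886 in wild type and 1.25, 0.924 and 1.20 in the knockout, again with no overlap. Ndufab1 relative to Ndufa7 was 2.08, 2.29 and 1.74 in wild type and 0.875, 1.77 and 0.913 in the knockout, where knockout library 2 reached the wild-type range. In each of these ratios knockout library 2 was the knockout library nearest to wild type. Assembly factors of the Ndufaf series came to 1.16%, 1.13% and 1.08% of the summed subunits in wild type and 1.25%, 1.12% and 1.07% in the knockout, with overlap.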
